A study of Mus musculus with 6 samples.

Results

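To ask how passage through a narrow pore bears on prostaglandin genes, the 10 genes of prostaglandin synthesis, breakdown and reception Ptgs1, Ptgs2, Ptges, Ptges2, Ptges3, Ptgis, Hpgd, Ptger1, Ptger2 and Ptger4 were examined among the 55335 genes of an RNA-seq count table. They were taken as a fixed list of gene names, chosen with earlier results of these data known, and all 10 were in the table. The cells were wild-type MEF, fibroblasts of the mouse embryo that grow attached to a surface and were cultured with serum. Cells of the Confine group had passed a transwell membrane with 3 μm pores and were collected after 15 h, and cells of the Ctrl group were the parental line. No other agent or allele is labelled in either group. The labels give 3 samples per group, but Confine replicate 1 and Confine replicate 2 did not differ in the count of any gene and were taken as 1 sample, so 3 Ctrl and 2 Confine libraries entered each comparison. The labels do not say whether the samples came from separate cultures, so p-values measure the spread between these libraries, which may be technical. The study's transwell method, given for wider pores, puts cells in medium without serum above medium with serum. Whether the 3 μm passage was run in this way is not stated. Ctrl cells are not labelled as having been on a membrane. Passage through the pores, time on the membrane, any difference in serum and the choice of the cells that migrate therefore cannot be told apart.

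Prostaglandins are lipids made from arachidonic acid, which phospholipases release from membranes. A cyclooxygenase, encoded by Ptgs1 (usually constitutive) or Ptgs2 (usually inducible by growth factors, cytokines or mechanical load), turns it into prostaglandin H2, and terminal synthases turn that into prostaglandin E2, prostacyclin and the others. Fibroblasts are a known source of prostaglandin E2, which acts on the receptors encoded by the Ptger genes, mostly through cAMP or calcium, and is inactivated inside the cell by the dehydrogenase encoded by Hpgd.

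Ptgs2 and Ptges, the pair of enzymes that is typically induced together for prostaglandin E2, were 6.61-fold and 5.59-fold higher in Confine. Ptgis, the prostacyclin synthase, was 3.24-fold higher, and Hpgd was 4.12-fold lower. The other cyclooxygenase Ptgs1, the other E synthases Ptges2 and Ptges3, and the receptors Ptger1 and Ptger4 did not pass the test. Of the 9 tested members, 3 were called higher, 1 lower and 5 in neither direction at an adjusted p under 0.05 (quasi-likelihood test of edgeR, Benjamini-Hochberg method over all 15881 tested genes). Of all tested genes, 23.0% were called, 12.8% higher and 10.2% lower, against 44.4% of the tested members. Since the members were chosen with earlier results known, this difference is described only and was not tested. The median log2 fold change (Confine minus Ctrl) was 0.11 over the tested members and 0 over all tested genes.

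**Figure D1:**
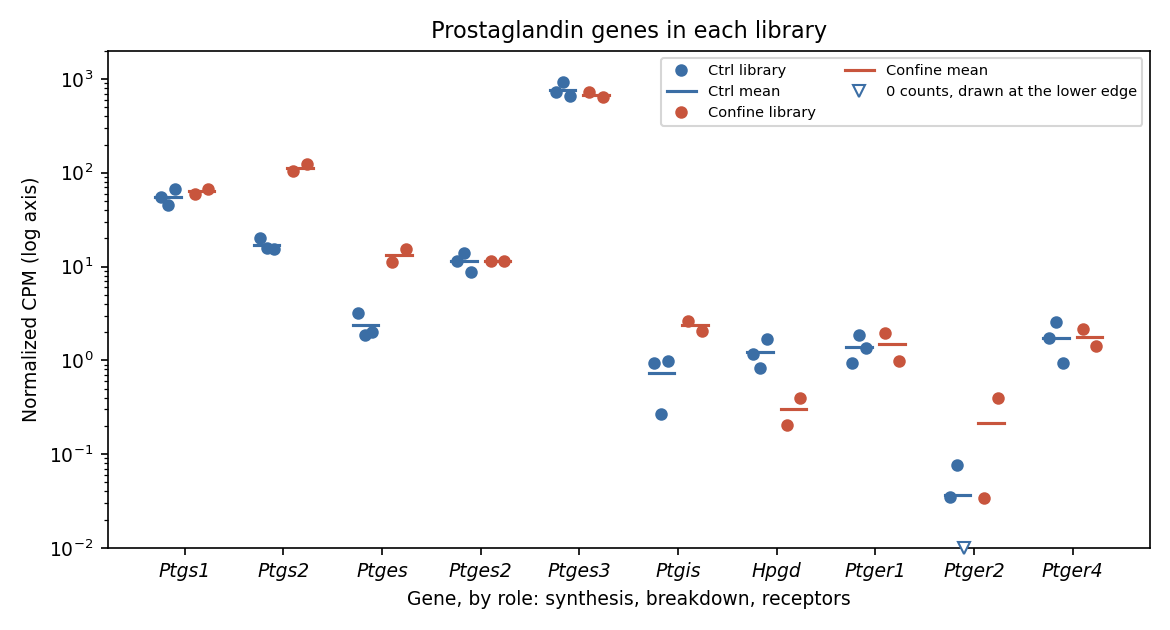
Normalized CPM (log axis) of the 10 genes in each library, with 3 Ctrl libraries in blue, 2 Confine libraries in red and a line at each group mean. The Confine libraries lie above every Ctrl library for Ptgs2, Ptges and Ptgis and below every Ctrl library for Hpgd, and the groups overlap for the other 6 genes.

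The sequences around the RefSeq start of Ptgs2, Ptges and Hpgd, the members with the largest fitted changes, are shown. That of Ptgs1, the cyclooxygenase gene that did not pass, is given for contrast. The RefSeq promoter table (GRCm38.p6), which holds 250 bases before and 50 after a start, has an entry for 8 of the 10 members. Each sequence is written 5′ to 3′ on the gene's strand, and capitals mark every match, on either strand, to 1 of 10 motifs: the TATA box TATAAA, the E-box CACGTG, the cAMP response element TGACGTCA, the core of that element TGACG, the hypoxia response core ACGTG, its other form GCGTG, the AP-1 site TGANTCA, the loose C/EBP motif TTNNGNAA, the GC box GGGCGG and the NF-kB consensus. The Ptgs2 window lies at chr1:150099781-150100080 on the plus strand, the Ptgs1 window at chr2:36230176-36230475 on the plus strand, the Ptges window at chr2:30903248-30903547 on the minus strand and the Hpgd window at chr8:56294302-56294601 on the plus strand.
Ptgs2: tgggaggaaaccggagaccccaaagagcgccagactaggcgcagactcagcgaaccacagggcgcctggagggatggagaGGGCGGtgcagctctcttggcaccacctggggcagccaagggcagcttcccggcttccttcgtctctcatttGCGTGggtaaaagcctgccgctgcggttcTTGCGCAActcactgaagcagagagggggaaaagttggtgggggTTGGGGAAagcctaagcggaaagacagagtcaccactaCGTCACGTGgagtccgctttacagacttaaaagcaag
Ptgs1: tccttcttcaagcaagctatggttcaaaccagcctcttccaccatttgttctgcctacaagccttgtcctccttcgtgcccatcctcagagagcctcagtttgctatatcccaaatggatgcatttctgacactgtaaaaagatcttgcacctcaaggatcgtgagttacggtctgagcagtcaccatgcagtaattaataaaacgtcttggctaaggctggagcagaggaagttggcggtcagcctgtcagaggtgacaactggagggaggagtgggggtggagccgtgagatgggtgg
Ptges: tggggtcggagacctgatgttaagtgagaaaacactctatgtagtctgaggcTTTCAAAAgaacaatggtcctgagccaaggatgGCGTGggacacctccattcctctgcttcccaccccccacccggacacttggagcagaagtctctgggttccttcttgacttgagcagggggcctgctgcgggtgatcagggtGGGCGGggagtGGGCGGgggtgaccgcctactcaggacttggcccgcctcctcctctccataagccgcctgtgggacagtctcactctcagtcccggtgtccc
Hpgd: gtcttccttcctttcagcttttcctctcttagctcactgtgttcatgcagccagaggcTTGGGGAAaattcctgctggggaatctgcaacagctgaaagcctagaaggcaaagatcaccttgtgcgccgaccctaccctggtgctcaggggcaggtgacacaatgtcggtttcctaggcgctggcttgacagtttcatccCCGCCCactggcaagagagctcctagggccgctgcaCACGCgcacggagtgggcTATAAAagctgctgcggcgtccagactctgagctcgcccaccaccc

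The Ptgs2 window held 9 matches and the Ptgs1 window 0. Number of matches did not follow the calls. Among other members that were not called, the Ptges3 window also held 9, that of Ptges2 5 and that of Ptger4 4. The window of Ptger2, which was not tested, held 3. In Ptgs2, an E-box at +17 to +22 from the RefSeq start overlapped the core of a cAMP response element on the opposite strand at +14 to +18, and the hypoxia core ACGTG lay within the E-box on both strands. C/EBP motifs stood at -69 to -62, where 1 stretch matched on both strands, and at -25 to -18, a GCGTG at -98 to -94 and a GC box at -170 to -165. The Ptges window held 4 matches, among them GC boxes at -53 to -48 and -42 to -37. The Hpgd window also held 4, among them a TATAAA at +5 to +10. All positions count from the RefSeq start, which is not the gene start given below for Hpgd and Ptges. The Hpgd gene start given below, at 56294585, lies downstream of this TATAAA, and the Ptges window lies inside the Ptges gene. The other member with an E-box in its window was Ptges2, at -77 to -72. Of all 32851 windows in the table, 7.15% held CACGTG, 1.79% TGACGTCA, 20.8% its core TGACG, 19.6% ACGTG, 32.4% GCGTG, 40.7% the C/EBP motif, 35.7% GGGCGG, 13.6% TATAAA, 7.81% TGANTCA and 8.46% the NF-kB consensus. GC content was 59.3% in the Ptgs2 window, 50.7% in Ptgs1, 60.0% in Ptges and 58.0% in Hpgd, against a median of 52.7% over all windows. A match describes these letters and is not a bound site, and a motif without a match is only not in this window.

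Ptgs2 (ENSMUSG00000032487.8, chr1:150100031-150108227, plus strand) encodes cyclooxygenase-2. It had 583, 414 and 365 counts in Ctrl replicates 1, 2 and 3, and 3066 and 3095 in Confine replicates 1 and 3. As CPM, which scale counts by library size and here by edgeR's TMM factor, these were 20.1, 15.6 and 15.5 against 104 and 123, so both Confine libraries stood far above all 3 Ctrl libraries. The means were 17.1 ± 2.63 CPM (SD, n = 3) and 113 ± 13.6 CPM (SD, n = 2), with a log2 fold change of 2.73 ± 0.19 (SE), a 95% interval of 2.32 to 3.13 and an adjusted p of 1.04e-08. An exact two-sided permutation of the libraries gave p = 0.1, the smallest that 3 against 2 libraries allow.

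Ptgs1 (chr2:36230426-36252272, plus strand) encodes cyclooxygenase-1. Its levels of 54.9, 44.8 and 67.2 CPM in Ctrl overlapped those of 59.5 and 66.8 CPM in Confine. The log2 fold change was 0.18 ± 0.20 (SE), with a 95% interval of -0.23 to 0.60 and an adjusted p of 0.56, so a change of the size seen in Ptgs2 lay outside the interval. Per kilobase of exon, Ptgs1 was the higher of the pair in Ctrl (14.3 CPM per kb against 3.73 for Ptgs2), and Ptgs2 was the higher in Confine (24.7 against 16.3). The ratio of Ptgs2 to Ptgs1 per length was 0.311, 0.296 and 0.196 in Ctrl and 1.48 and 1.56 in Confine, below 1 in every Ctrl library and above 1 in both Confine libraries. The log2 ratio differed by 2.53 (exact two-sided permutation p = 0.1, again the smallest possible), and by 2.32 to 2.66 with any library left out.

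Of the 3 prostaglandin E synthase genes, only Ptges passed the test. Ptges (ENSMUSG00000050737.13, chr2:30889471-30929863, minus strand) encodes the inducible, membrane-bound microsomal synthase that works with cyclooxygenase-2. It had 93, 49 and 47 counts in Ctrl and 335 and 383 in Confine, or 3.21, 1.85 and 2.00 CPM against 11.3 and 15.2 CPM. All Confine values were above all Ctrl values. The log2 fold change was 2.48 ± 0.27 (SE), with a 95% interval of 1.91 to 3.06 and an adjusted p of 2.52e-06.

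Ptges2 (chr2:32395896-32405772, plus strand), another membrane-associated synthase, lay at 11.4, 14.1 and 8.76 CPM in Ctrl and at 11.4 and 11.5 CPM in Confine. Both Confine values fell inside the Ctrl range, and the log2 fold change was 0.01 ± 0.23 (SE), with a 95% interval of -0.48 to 0.49 and an adjusted p of 0.989. The ratio of Ptges to Ptges2 per length, a ratio chosen after the values were seen, was 0.363, 0.169 and 0.294 in Ctrl and 1.28 and 1.70 in Confine. Per length, the order of these synthases thus also turned over. In Confine replicate 1 this rests on the exon lengths used (3931 and 5058 bases), since Ptges had 335 counts there and Ptges2 338. Its log2 difference was 2.49, with an exact two-sided permutation p of 0.1.

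Ptges3 (chr10:128058954-128077272, plus strand), which encodes the cytosolic synthase also known as the Hsp90 co-chaperone p23, was the most abundant member per length, at 348 CPM per kb in Ctrl and 308 in Confine. Its 728, 920 and 666 CPM in Ctrl and 728 and 638 CPM in Confine overlapped. The log2 fold change was -0.18 ± 0.19 (SE), with a 95% interval of -0.57 to 0.22 and an adjusted p of 0.563. Its exons share an identical stretch of 480 bases with the pseudogene Ptges3-ps, which had a mean of 230 counts against 19750 for Ptges3, so reads of that stretch could have been split between them.

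Ptgis (ENSMUSG00000017969.13, chr2:167191805-167240604, minus strand) encodes the synthase of prostacyclin, which relaxes vessels and inhibits platelets. It was low, with 27, 7 and 23 counts in Ctrl and 78 and 52 in Confine, or 0.933, 0.265 and 0.978 CPM against 2.64 and 2.06 CPM. The lower Confine library was still above the highest Ctrl library, while Ctrl replicate 2 lay well below the other Ctrl libraries. The log2 fold change was 1.70 ± 0.46 (SE), with a 95% interval of 0.72 to 2.67 and an adjusted p of 0.0119. Without Confine replicate 1 it was 1.51, and the adjusted p rose to 0.124, and Ptgis left the tested set when at least 10 counts were asked of every library.

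Hpgd (ENSMUSG00000031613.9, chr8:56294585-56321043, plus strand), the dehydrogenase that begins the breakdown of prostaglandin E2, was the member that fell. It had 34, 22 and 40 counts in Ctrl and 6 and 10 in Confine, or 1.17, 0.831 and 1.70 CPM against 0.203 and 0.397 CPM. Every Confine value was below every Ctrl value, at few counts. The log2 fold change was -2.04 ± 0.57 (SE), with a 95% interval of -3.24 to -0.84 and an adjusted p of 0.0140. Without Confine replicate 1 it was -1.62 with an adjusted p of 0.15, and Hpgd left the tested set when at least 10 counts were asked of every library.

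**Figure D2:**
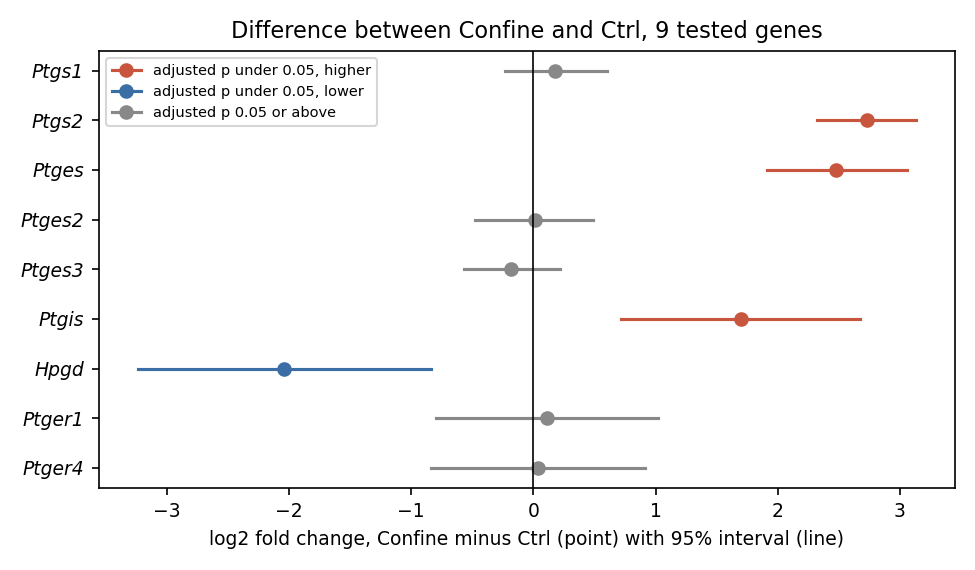
Log2 fold change of the 9 tested genes (points, Confine minus Ctrl) with 95% intervals (lines), coloured by whether the adjusted p was under 0.05. The intervals of Ptgs2 (2.32 to 3.13) and Ptges (1.91 to 3.06) lie well above 0, those of Ptgis and Hpgd are wider, and the other 5 cross 0.

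The receptors were low, at most 67 counts in any library, and neither tested receptor passed. Ptger4 (chr15:5206661-5244187, minus strand), which raises cAMP, lay at 1.73, 2.53 and 0.936 CPM in Ctrl and 2.13 and 1.43 CPM in Confine. These values overlapped, with a log2 fold change of 0.04 ± 0.42 (SE), a 95% interval of -0.84 to 0.91 and an adjusted p of 0.963. A change of any size within that interval is compatible with these libraries, which are few and have low counts of this gene.

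Ptger1 (chr8:83666678-83672753, plus strand), which signals through calcium, was at 0.933, 1.85 and 1.36 CPM in Ctrl and at 1.96 and 0.993 CPM in Confine. The groups overlapped, and the log2 fold change was 0.11 ± 0.43 (SE), with a 95% interval of -0.80 to 1.02 and an adjusted p of 0.893. Its level is uncertain, since the libraries keep the strand but whether the counting used it is not given in the sources used here.

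Ptger2 (chr14:44988195-45003820, plus strand), the other receptor that raises cAMP, had 1, 2 and 0 counts in Ctrl and 1 and 10 in Confine and was too low to test, 3 counts being 0.101 to 0.128 CPM in these libraries. Its highest value came from Confine replicate 3 alone. Ptger4 was above Ptger2 in all 5 libraries per length, and the planned ratio of these genes could not be formed in Ctrl replicate 3. Ptger4 and Ptger1 were of like level, with a log2 ratio per length that differed by 0.06 between groups (exact two-sided permutation p = 0.9), a ratio chosen after the values were seen.

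Among the 9 tested members, 4 had groups that did not overlap, the 4 that were called, and 49.5% of all tested genes had such groups. The same 4 members also had an absolute log2 fold change above 1.5, the cutoff the study used, and 8.00% of all tested genes had both such a fold change and an adjusted p under 0.05. By role, 3 of the 6 synthesis genes were higher, with a median log2 fold change of 0.94. Of the 2 tested receptors, 0 were called, with a median of 0.07. Over all tested genes, 12.8% were higher and 23.0% called, so 0 of 2 says little about receptors. The count of receptors was also 0 at an unadjusted p under 0.05 in edgeR and at an adjusted p under 0.05 in DESeq2 and limma-voom.

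**Figure D3:**
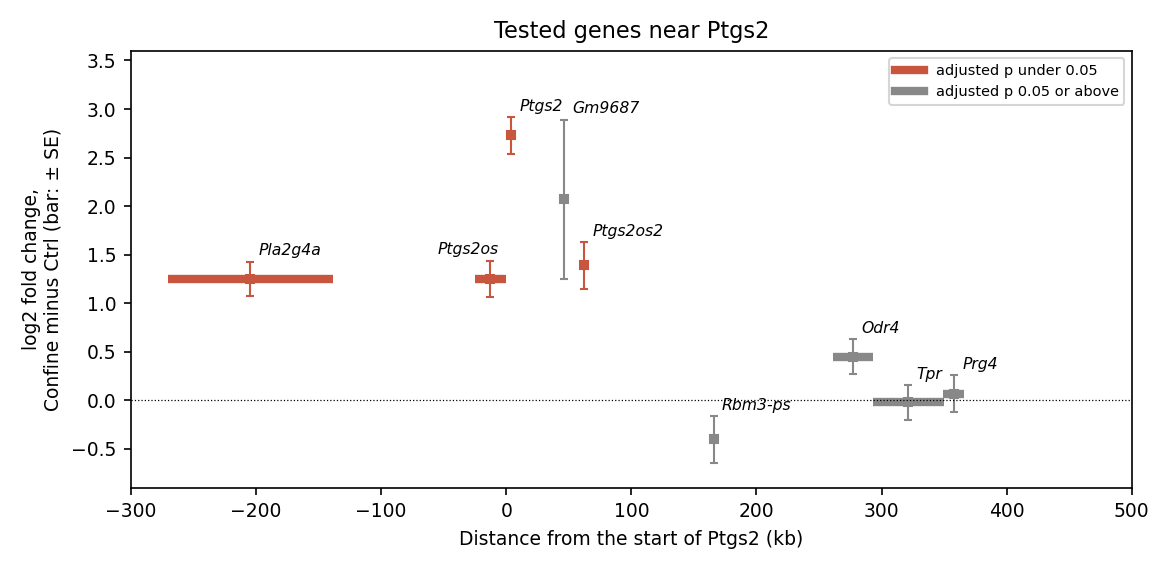
Log2 fold change (Confine minus Ctrl, ± SE) of the 9 tested genes within 500 kb of Ptgs2 against distance from its start in kb, with each gene's extent drawn as a thick line and a square at its middle. Ptgs2 at 2.73 and Pla2g4a, Ptgs2os and Ptgs2os2 at 1.25 to 1.39 have an adjusted p under 0.05, while Gm9687, Rbm3-ps, Odr4, Tpr and Prg4 do not.

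Ptgs2 lies beside Pla2g4a, the gene of the cytosolic phospholipase A2 that supplies arachidonic acid to it, and the genes around it were examined after their values were seen. In a window of 500 kb on either side, 8 genes beside Ptgs2 were tested, of which 3 were higher, 0 lower and 5 not called, against 12.8% higher over all tested genes. Pla2g4a (chr1:149829618-149961290, minus strand) had 1830, 1768 and 1325 counts in Ctrl and 4060 and 3966 in Confine, which did not overlap. Its log2 fold change was 1.25 ± 0.18 (SE, adjusted p = 4.12e-05).

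Ptgs2os (chr1:150074873-150099963, minus strand), a noncoding transcript of the opposite strand, starts 0.068 kb upstream of Ptgs2, inside the window printed above. It had 299, 257 and 281 counts in Ctrl and 741 and 648 in Confine. Its log2 fold change was 1.25 ± 0.19 (SE, adjusted p = 0.000104). Ptgs2os2 (chr1:150159043-150164948, minus strand), a lincRNA on the other side of Ptgs2, had 346, 619 and 303 counts against 1227 and 1086, with a log2 fold change of 1.39 ± 0.24 (SE, adjusted p = 0.000282). Neither overlaps an exon of Ptgs2, but whether the counting used the strand is not given in the sources used here, so reads of the other strand at these places could have been counted for them. The other 5 were Tpr (log2 fold change -0.02, adjusted p = 0.948), Odr4 (0.45, 0.0802), Prg4 (0.07, 0.836), Rbm3-ps (-0.40, 0.26) and Gm9687 (2.07, 0.0795), the last of which had at most 17 counts in a library.

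Over all tested genes, 23.0% were called, 12.8% higher and 10.2% lower, the shares to set beside each list below. The supply of arachidonic acid was read from 18 genes of its release, 12 of them tested. Of these, 7 were higher and 2 lower, with a median log2 fold change of 0.81. The higher ones included Mgll, the monoacylglycerol lipase, with 125, 156 and 175 counts in Ctrl and 652 and 773 in Confine (log2 fold change 2.17 ± 0.24 SE, adjusted p = 2.56e-06). Pla2g4c, another phospholipase A2, fell from 45, 29 and 31 counts to 3 and 12 (log2 fold change -2.22 ± 0.60 SE, adjusted p = 0.0110). Of 8 tested genes that return arachidonate to phospholipids, 1 was higher and 2 were lower (median -0.30). The higher one was the acyltransferase gene Mboat2, with 111, 135 and 99 counts against 457 and 441 (log2 fold change 1.91 ± 0.22 SE, adjusted p = 4.82e-06).

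Among 8 tested genes of other terminal synthases and prostaglandin F synthesis, 1 was higher and 1 lower (25% called, median log2 fold change -0.11). Akr1b8, an aldo-keto reductase, had 973, 895 and 680 counts in Ctrl and 4339 and 3849 in Confine (log2 fold change 2.22 ± 0.18 SE, adjusted p = 5.01e-08), and 250 bases of it match Akr1b10 at 95.6% identity. Akr1b3, the related aldose reductase with prostaglandin F synthase activity, had a log2 fold change of -0.33 (adjusted p = 0.212), and the glutathione transferase Gstm2 fell by 0.65 on the log2 scale (adjusted p = 0.0154). Akr1c18, named after its values were seen, had 4, 5 and 1 counts in Ctrl but 121 in Confine replicate 1 and 7 in Confine replicate 3, so its high level rests on 1 library, and it was not tested.

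Of 7 tested genes of export, uptake and breakdown beside Hpgd, 1 was higher and 1 lower (28.6% called, median log2 fold change 0.12). The lower one was Akr1c14, a hydroxysteroid dehydrogenase, with 359, 330 and 332 counts in Ctrl and 73 and 67 in Confine (log2 fold change -2.34 ± 0.25 SE, adjusted p = 1.42e-06). Both Confine values were far below the 3 Ctrl values, as for Hpgd but at higher counts. Other genes of this list, named after their values were seen, did not fall. Ptgr1 (mean of 1738 counts, log2 fold change 0.03, adjusted p = 0.935) and Zadh2 (1578 counts, -0.03, adjusted p = 0.937) did not pass. The higher gene was Abcc1 (log2 fold change 0.96, adjusted p = 0.000512).

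Of 9 other genes of prostanoid reception, 6 were tested, of which 1 was higher and 2 lower (median log2 fold change 0.05), while the E2 receptor Ptger3 and the D2 receptor Ptgdr had 0 counts in every library. The thromboxane receptor Tbxa2r had 60, 22 and 51 counts in Ctrl and 10 and 4 in Confine (log2 fold change -2.72 ± 0.59 SE, adjusted p = 0.00221). Pparg, a nuclear receptor that binds prostaglandin J2 derivatives, had 12, 17 and 7 counts in Ctrl and 0 and 1 in Confine (adjusted p = 0.0076), too few for a fold change. The nuclear receptor Ppard rose (log2 fold change 0.97, adjusted p = 0.000782). The F2α receptor Ptgfr (0.10, adjusted p = 0.773) and its partner Ptgfrn (-0.01, adjusted p = 0.984) did not pass.

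Of 32 tested genes of G proteins, arrestins and the cAMP pathway down to its transcription factors, 4 were higher and 2 lower (median log2 fold change 0.01). That is 18.8% called, below the 23.0% of all tested genes. The adenylyl cyclase Adcy4 had 11, 3 and 3 counts in Ctrl and 45 and 118 in Confine (log2 fold change 3.83 ± 0.57 SE, adjusted p = 6.60e-05). Pde4b, a phosphodiesterase that degrades cAMP and is itself a cAMP response gene, fell from 524, 332 and 342 counts to 120 and 117 (log2 fold change -1.79 ± 0.24 SE, adjusted p = 2.48e-05).

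Of 11 tested genes that cAMP is known to induce, 6 were higher and 3 lower (median log2 fold change 0.99), so they did not move one way. The kinase gene Sik1 rose by a log2 fold change of 2.07 ± 0.26 (SE, adjusted p = 1.17e-05), and the nuclear receptor Nr4a3 had 1, 2 and 0 counts in Ctrl and 17 and 13 in Confine (adjusted p = 0.00457). The immediate early gene Fos fell from 961, 253 and 452 counts to 61 and 105 (log2 fold change -2.74 ± 0.42 SE, adjusted p = 8.10e-05), and Fosb from 185, 84 and 79 to 12 and 25 (log2 fold change -2.64 ± 0.45 SE, adjusted p = 0.000230). Both Fos genes were highest in Ctrl replicate 1.

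Of 5 tested genes of the lipoxygenase and epoxide branches, which compete for arachidonic acid, 2 were higher and 0 lower (median log2 fold change 0.50). None of the 5 is a lipoxygenase gene, and the lipoxygenase genes listed had at most 5 counts in any library. The higher ones were Ephx1, an epoxide hydrolase, and Cyp4f13, a cytochrome P450, named after their values were seen. Of 13 genes of factors known to act on Ptgs2 transcription or mRNA, all tested, 2 were higher and 0 lower (median -0.03). Counted once each, 99 of the 136 genes around the 10 members were tested and 24 were higher, 12 lower and 63 not called (median 0.10). That is 36.4% called, against 23.0% of all tested genes. These lists were also chosen with earlier results known, so this difference is described only and was not tested.

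**Figure D4:**
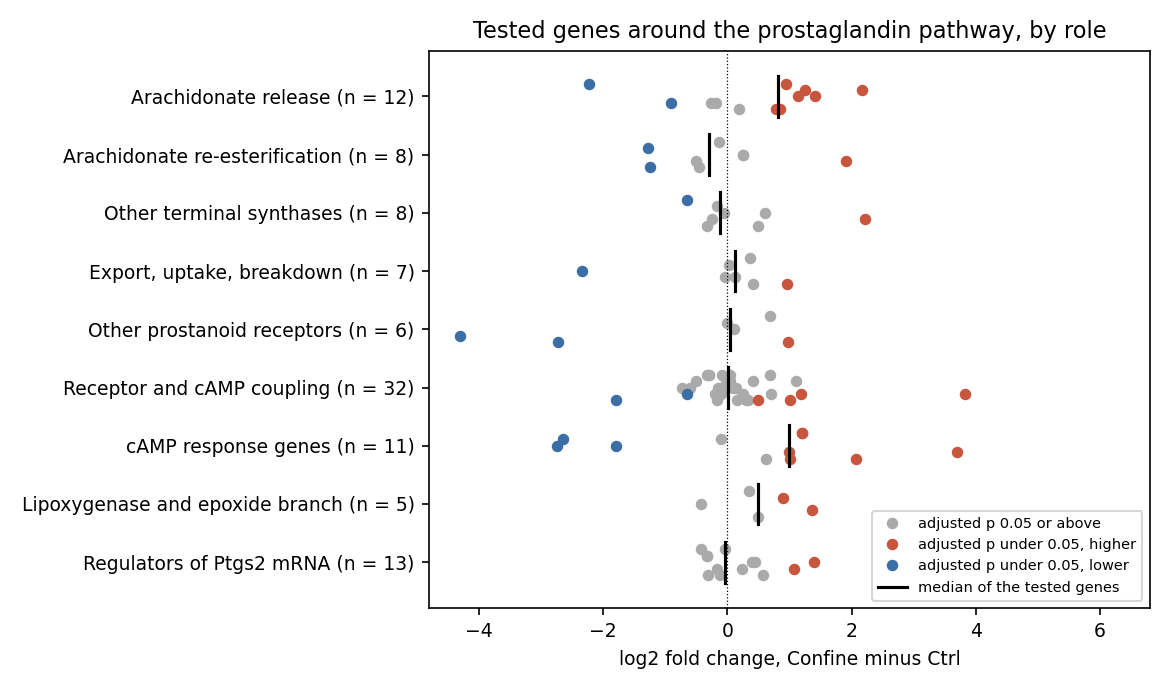
Log2 fold change (Confine minus Ctrl) of the tested genes of each list around the prostaglandin pathway, 1 point per gene, coloured by call, with a black line at each list's median. Arachidonate release (median 0.81) and cAMP response genes (median 0.99) have medians well above 0 with genes called in both directions, and the point farthest left is Pparg, whose fitted value rests on 1 count in Confine.

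In bulk RNA, fewer cells of a type and less RNA per cell cannot be told apart. Total counts per library were 22287210 to 27853805 in Ctrl and 27290138 to 32537550 in Confine. The fibroblast markers summed to 9130 to 10100 CPM in Ctrl and 16400 to 17300 CPM in Confine, with 7 of 12 tested higher and 1 lower, while Lum, Thy1 and Fap did not exceed 2 counts in a library and Dcn had 2, 0 and 0 counts in Ctrl and 27 and 3 in Confine. Macrophage and leukocyte markers, genes of cells that can also make prostaglandins, summed to 16.7 to 19.2 CPM in Ctrl and 39.1 to 43.9 CPM in Confine, with 4 of 6 tested higher and 1 lower. The higher ones were Cd68 (68, 103 and 75 counts in Ctrl, 491 and 588 in Confine), Cd14, Csf1r and Itgb2, and the lower one was Lyz2. Of the 18 listed, 7 were at 0 in every library, among them Adgre1 and Tyrobp, and Ptprc had at most 2 counts. The part of these markers in the changes of Ptgs2, Ptges, Ptgis and Hpgd was not tested. Mast cell and platelet markers, cells rich in other prostanoids, summed to 10.3 to 16.0 CPM in Ctrl and 10.4 to 17.8 CPM in Confine, with 1 of 3 tested higher and 2 lower. Endothelial markers summed to 0.595 to 1.36 CPM in Ctrl and 2.43 to 2.70 CPM in Confine, and epithelial markers to 0.415 to 0.794 and 4.02 to 8.77 CPM. Each list had 1 tested gene, which was higher and made up most of the Confine sum. These were Vwf (mean 0.394 CPM in Ctrl, 2.49 in Confine) and Krt19 (0.205, 5.98). The other genes of both lists had at most 17 counts in any library. Of these, Cdh5, Kdr, Pecam1 and Tek had lower means in Confine, as had Cdh1, Krt5 and Krt14, while Krt8 had a higher one.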

How the data were processed

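Per the labels, polyadenylated RNA of MEF was made into libraries with dUTP in the second strand. Per the submitters' processing notes, Trim Galore 0.6.10, HISAT2 2.1.0, SAMtools 1.5, featureCounts and the mm10 build were used, with no order given. The annotation and strand setting of the counting are not given in the sources used here. The authors deposited raw read counts per gene, without normalization.

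Names, positions and exon lengths were taken from GENCODE M21 (GRCm38), which held 55154 of the 55335 gene identifiers, 54587 of them in the same version. Of 6 columns, 2 were identical and counted once. Genes kept by filterByExpr of edgeR 4.0.16 were normalized by TMM and tested by its quasi-likelihood test (3 residual and 14.8 prior degrees of freedom, R 4.3.3) with Benjamini-Hochberg adjustment. The standard error is the fold change divided by the root of the test's F. CPM per kb divides by exon length. Copies were searched with blastn 2.17.0 at 95% identity over 100 bases or more. The steps were tested on simulated data. Alternatives used DESeq2 1.42.0, limma 3.58.1 and other scalings, filters and library sets. The floor of 3 counts covers counting error only, because the reads carry no molecular identifiers.

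The members and gene lists were chosen with earlier results of these data known. All 10 members were named. From each other list, genes past the test with an absolute log2 fold change above 1.5 were named (at most 4 per direction), with the 3 of highest mean count among synthases and receptors. A result that bears on the counting of Ptger1 is not reported here.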

Additional observations from a re-analysis of the deposited data

How the results depend on the processing

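Across 14 alternatives each, Ptgs2 stayed at a log2 fold change of 2.52 to 2.86, Ptges at 2.26 to 2.78 and Pla2g4a, singled out after its values were seen, at 1.04 to 1.34, all past the test. Ptgis (1.29 to 2.05 in 13) and Hpgd (-2.58 to -1.62 in 13) missed the threshold only without Confine replicate 1, where the lone Confine library is assumed to vary like Ctrl. With 10 counts asked of every library, 2 members were higher and 0 lower, since Ptgis and Hpgd were not tested. With a library left out, 2 to 3 were higher and 0 to 1 lower. With library size alone, the median of all genes was -0.21, 34% of called genes were higher against 55.7% with TMM, 2805 genes in all and 20 other pathway genes were lower, and Ptgs1 was -0.02, Ptges2 -0.20, Ptger1 -0.11 and Ptger4 -0.18. Ptges2 was -0.01 with DESeq2, with its size factors and with the identical columns kept as 2 samples (which gave 2456 lower genes in all), and -0.00 with no filter beyond 1 count. With a library left out, it ranged from -0.17 to 0.18, Ptger1 from -0.47 to 0.50 and Ptger4 from -0.28 to 0.40. No direction is therefore given for these genes. With the cutoff of 1.5 on the log2 fold change, 1271 genes passed (777 higher, 494 lower), with 6 other pathway genes higher and 7 lower. With a library left out, 2054 to 4426 genes were called (1196 to 2411 higher, 850 to 2015 lower), with 18 to 29 other pathway genes higher and 7 to 13 lower. Replicate numbers did not pair the libraries (correlation of same-numbered differences -0.05 or 0.05, by the number given to the repeated library). With the replicate block, Ptger1 was -0.17 with the repeated library as number 2 and 0.34 as number 1, and no other member changed direction or call. The cause of these shifts was not tested. Depth limits Ptgis, Hpgd and the receptors, which had at most 78 counts in any library.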
